A study of Mus musculus with 66 samples.

Results

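The 10 genes described here are the calprotectin subunits S100a8 and S100a9 and the neutrophil genes Lcn2, Csf3r, Cxcr2, Mmp8, Mmp9, Trem1, Clec4e and Retnlg. They were chosen by symbol from the deposited abundance table, in which all 10 of 10 were found among 30452 genes. The 66 libraries were made from 19 C57Bl/6 mice (age 6 weeks at purchase), for which the labels name no engineered allele. Injury was induced with dextran sulfate sodium (DSS) at 3% for 6 days, a polymer that damages the lining of the colon. Uninjured mice were taken at day 0 (4 mice), and injured mice at days 3, 6, 9, 14 and 20 (3 mice each), so the day 3 mice were still on DSS. Each mouse gave a mid-colon, a rectum and an anus sample (19 of each), and the mice of days 9, 14 and 20 also gave 1 sample each of squamous neo-epithelium (9 samples), a stratified lining that forms over the injured rectum next to the anus. The muscle layer was removed, so the values are from bulk mucosa with all its cell types, and fewer cells of a type cannot be told apart from less RNA per cell.

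Neutrophils are short-lived granulocytes that leave the bone marrow under G-CSF, follow CXC chemokines into injured tissue and release granule proteins there. S100a8 and S100a9 form calprotectin, a calcium-binding and zinc-binding heterodimer that fills the neutrophil cytosol and whose stool level is a clinical measure of intestinal inflammation; stressed squamous epithelium also makes it. Csf3r is the receptor for G-CSF and Cxcr2 a receptor for some of the CXC chemokines. Lcn2 (lipocalin 2, a siderophore-binding protein that epithelia also make), Mmp8 (neutrophil collagenase) and Mmp9 (gelatinase B) are granule proteins. Trem1 and Clec4e (Mincle) are activating receptors of myeloid cells, monocytes and macrophages included, and Retnlg is a resistin-like secreted protein of mouse neutrophils.

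On mm10, the build named in the submitters' processing notes, the calprotectin genes lie side by side on chromosome 3, S100a8 on the plus strand at 90668978-90670035 and S100a9 on the minus strand at 90692632-90695721, 22596 bases apart in the GENCODE annotation. The other 8 genes are spread over 7 chromosomes, with Lcn2 (32384633-32388252, minus strand) and Mmp9 (164940780-164955850, plus strand) both on chromosome 2. Promoter sequence was found for 9 of the 10 genes in the RefSeq table of the GRCm38.p6 build, all but Mmp9. The 250 bases before the annotated start are printed for S100a9, the calprotectin subunit that holds a C/EBP-type match, and for Mmp8 and Retnlg, the pair whose level per Csf3r set day 9 apart in the ratios given further on. Capitals mark matches to TTGCNNAA, a motif of the C/EBP factors of granulocytes, and in Mmp8 also GAGGAA, a core motif of PU.1, searched on both strands with no overlap between the matches.
S100a9, chr3:90695722-90695971, minus strand: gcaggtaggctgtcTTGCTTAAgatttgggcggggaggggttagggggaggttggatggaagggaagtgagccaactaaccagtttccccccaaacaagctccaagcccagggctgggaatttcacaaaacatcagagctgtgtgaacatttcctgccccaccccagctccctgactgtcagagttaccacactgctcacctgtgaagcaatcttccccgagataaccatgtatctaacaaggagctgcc
Mmp8, chr9:7558179-7558428, plus strand: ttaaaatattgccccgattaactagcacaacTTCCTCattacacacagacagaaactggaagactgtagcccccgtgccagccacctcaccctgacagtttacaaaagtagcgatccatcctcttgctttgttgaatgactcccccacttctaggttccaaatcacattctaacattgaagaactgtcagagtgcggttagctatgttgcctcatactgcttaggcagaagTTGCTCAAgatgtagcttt
Retnlg, chr16:48872358-48872607, plus strand: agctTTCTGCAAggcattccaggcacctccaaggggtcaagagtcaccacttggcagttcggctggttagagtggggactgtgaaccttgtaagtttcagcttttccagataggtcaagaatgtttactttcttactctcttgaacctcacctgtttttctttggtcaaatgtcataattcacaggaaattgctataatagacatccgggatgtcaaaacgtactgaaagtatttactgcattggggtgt
The C/EBP-type motif was present in 5 of the 9 promoters (S100a9, Lcn2, Mmp8, Clec4e and Retnlg), beside 9.55% of 27025 mouse promoter windows of the same length. The PU.1 core was present in 7 of 9 (all but S100a9 and Retnlg), beside 23.1% of all windows. A 10-base NF-kB motif was found in 1 of 9, Csf3r, beside 7.01%. These matches describe letters in a window, and binding was not measured.

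The table holds TPM values, length-adjusted levels scaled to the same total in every library that allow genes to be compared within a library, and no counts, so the depth of each library is unknown and no counting interval is given. Between 11270 and 13790 genes reached 1 TPM per library. The section labels were checked against marker lists. Summed TPM of 12 squamous epithelium genes ranged over 13860 to 30710 across anus samples and 16440 to 37480 across neo-epithelium samples; the rectum ranged over 346 to 1602 and the mid-colon over 286 to 699. Markers of colonic epithelium (10 genes) summed to 12400 to 33610 in rectum and 16390 to 38210 in mid-colon, but they were also present elsewhere: neo-epithelium samples held between 38.25 and 11120, and the highest anus sample held 6816. The p-values measure the spread between these mice, at 3 or 4 per group. In the tests, limma compared log2(TPM + 1) between groups, p-values were adjusted by Benjamini-Hochberg over all genes tested, and a gene was called at an adjusted p under 0.05. Differences on this scale understate the change of genes near 0 TPM.

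In uninjured mid-colon and rectum the 10 genes were near absent, whereas uninjured anus held large amounts of calprotectin and little of the neutrophil receptors. S100a8 in the 4 uninjured anus samples was 523.6, 208.6, 176.4 and 129.9 TPM, and S100a9 was 838.4, 320.4, 335.0 and 214.5 TPM. Csf3r in the same samples was 1.189, 0.1293, 0.3707 and 0.1591 TPM, and Cxcr2 was 1.94, 1.624, 1.507 and 0.8907 TPM, above its highest uninjured rectum value of 0.2961 TPM. In uninjured rectum S100a8 reached 1.274 TPM at most and Csf3r 0.2579 TPM, so the groups did not overlap for S100a8. Among the members, 4 of the 4 tested were called higher in anus than in rectum at day 0, in a comparison where 25.9% of all genes were called higher. The differences on the log2 scale were 7.32 ± 0.42 (SE) for S100a8 (adjusted p = 5.1e-07, limma), 7.13 ± 0.47 for S100a9, 2.68 ± 0.31 for Lcn2 and 1.10 ± 0.31 for Mmp9. The other 6 did not reach 1 TPM in 4 of these samples and were not tested. Mmp9, under 1 TPM in all uninjured rectum samples, passed this filter only through anus, and S100a8 reached 1 TPM in just 1 of the rectum samples. For these genes the filter favours a call of a higher level in anus. Lcn2 in uninjured anus was 14.37, 16.39, 40.9 and 18.63 TPM, and its highest value in uninjured rectum was 3.049 TPM. Squamous markers moved with this contrast, since 12 of 12 were called higher in anus, and their part in the result was not tested. The monocyte and macrophage list had 6 of 10 genes called higher and 1 lower. Between rectum and mid-colon at day 0 neither of the 2 members tested was called (0 at an unadjusted p under 0.05; 1.52% of all genes were called higher), with S100a9 at 0.68 ± 0.42 and Lcn2 at -0.36 ± 0.22.

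**Figure D1:**
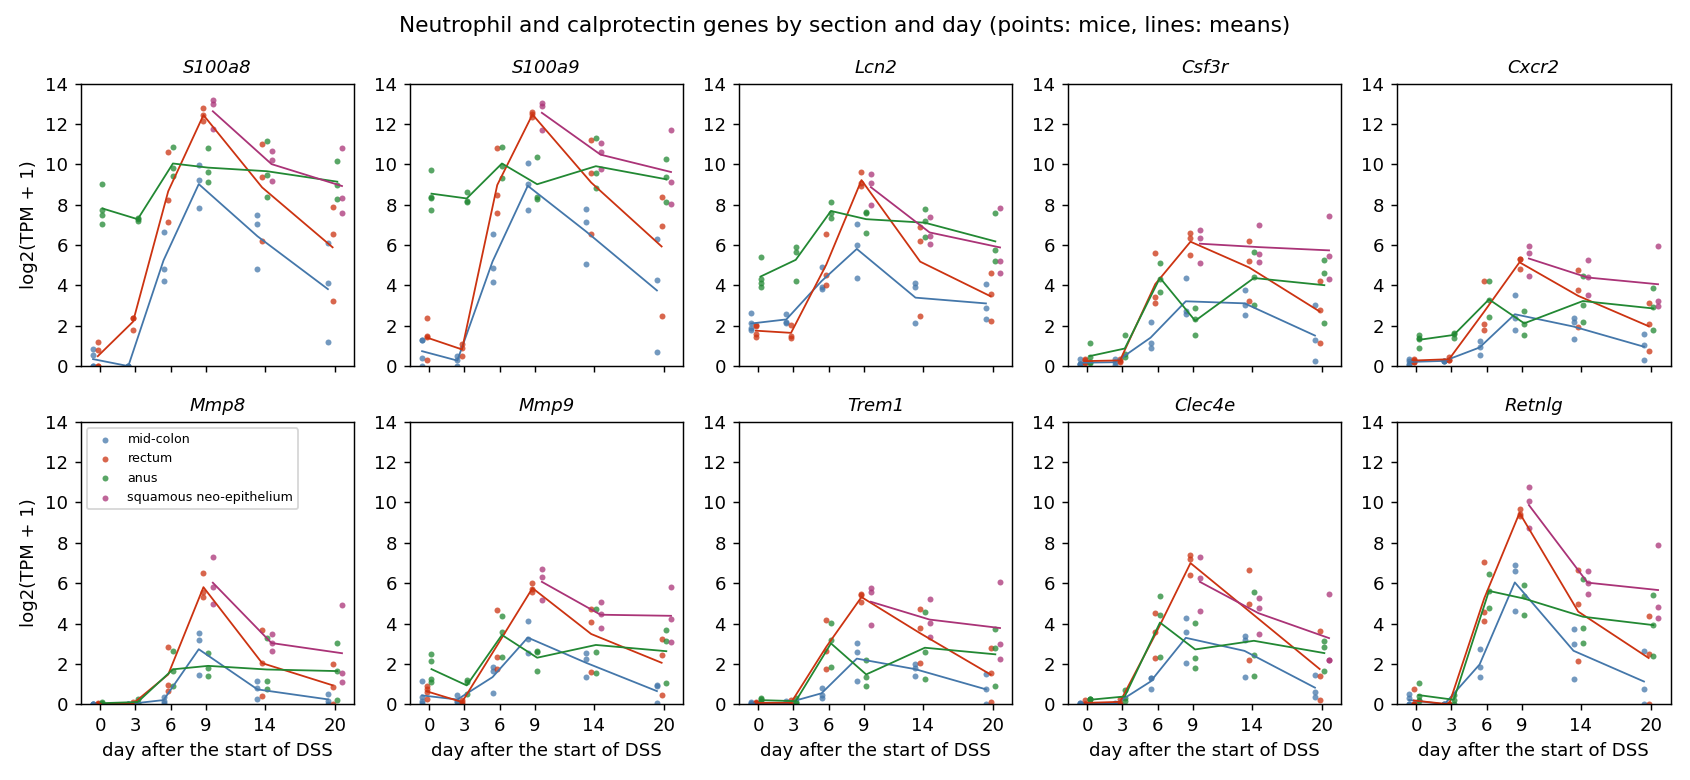
Level of each of the 10 genes on a log2(TPM + 1) scale (vertical axis) by day after the start of DSS (horizontal axis), with 1 point per mouse and lines through the section means of log2 values. S100a8 and S100a9 start high in anus and near 0 in rectum and mid-colon, and all 10 genes peak at day 9 in rectum and mid-colon.

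At day 3 of DSS the genes had hardly moved. S100a8 in rectum was 4.281, 2.465 and 4.293 TPM, above all 4 uninjured values, and was called higher by 1.71 ± 0.32 on the log2 scale (adjusted p = 0.0129, limma). It was the 1 call among 3 members tested in rectum, where 1.5% of all genes were called higher, and without mouse 5 no member was called. S100a9 in the same 3 samples was 0.8331, 1.119 and 0.4332 TPM, which overlapped the uninjured range. No member was called at day 3 in mid-colon (1 tested, 0.0666% of genes called higher) or in anus (5 tested, 0.022%), and none reached an unadjusted p under 0.05 there.

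By day 6, when DSS ended, the neutrophil genes had risen in rectum and the mice differed widely. S100a8 was 140.9, 304.7 and 1543 TPM in mice 8, 9 and 10, and Csf3r was 7.837, 9.74 and 48.34 TPM. Mouse 10 was highest for all 10 genes in rectum. All 9 of the 9 members tested were called higher than at day 0 (11.5% of all genes), with a median log2 difference of 3.38 beside -0.27 for all genes tested. Csf3r, Cxcr2, Mmp9, Trem1, Clec4e and Retnlg, under 1 TPM in all uninjured rectum samples, were tested only through their day 6 levels. The count and the median therefore favour genes that rose. Calprotectin rose most, with S100a8 at 8.17 ± 0.70 (adjusted p = 0.000175, limma), and Mmp9 least, at 2.28 ± 0.59 (adjusted p = 0.0135). Mmp8 was at 0.5628, 0.9437 and 6.085 TPM, and the filter left it out of this comparison. Monocyte and macrophage genes rose with the members, 10 of 10 called higher, and mitochondrial transcripts took 9.668% to 13.41% of these libraries against 16.33% to 20.01% at day 0; their part in the members' change was not tested. In mid-colon 4 of 5 tested were called higher (4.93% of genes): S100a8, S100a9, Lcn2 and Retnlg, while Mmp9 was at 0.91 ± 0.35 (adjusted p = 0.102), and without mouse 9 the count was 6. S100a8 and Retnlg, under 1 TPM in all uninjured mid-colon samples, were tested there only through their day 6 levels, which favours a call. The monocyte and macrophage list had 8 of 10 called higher in mid-colon at this day.

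At day 9, after DSS had ended, the rectum held on average more of all 10 transcripts than on any other day. S100a8 was 6975, 5487 and 4504 TPM and S100a9 5204, 6123 and 5734 TPM, with each of the 3 mice above every other rectum sample. Together the 10 genes made up 1.189% to 1.381% of each day 9 rectum library, against 0.0004593% to 0.001001% in uninjured rectum. The receptors were lower and rose alongside, Csf3r to 45.2, 81.05 and 96.74 TPM and Cxcr2 to 27.2, 39.23 and 38.11 TPM. Of the granule proteins, Lcn2 stood at 490.9, 793.8 and 539.5 TPM. Mmp8 reached 88.87, 46.86 and 39.39 TPM from at most 0.03212 TPM in uninjured rectum, and Mmp9 46.32, 51.0 and 63.12 TPM from at most 0.8535 TPM. Retnlg, listed at 0 in 3 of the 4 uninjured samples, was 820.3, 644.8 and 690.3 TPM, the third of the 10 by mean level. Trem1 was 32.32, 41.49 and 43.2 TPM and Clec4e 83.54, 166.4 and 146.0 TPM. For 10 of 10 genes all day 9 samples were above all uninjured ones, as was so for 34.6% of all genes tested. For Csf3r, Cxcr2, Mmp8, Mmp9, Trem1, Clec4e and Retnlg, under 1 TPM in all uninjured rectum samples, the filter of 1 TPM fixed this outcome. They entered the tests against day 0 only through their day 9 levels.

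All 10 members were called higher in rectum at day 9 than at day 0, in a comparison where 33.5% of all genes were called higher. On the log2 scale S100a8 rose by 11.95 ± 0.30 (adjusted p = 6.99e-08, limma) and S100a9 by 11.06 ± 0.40, ranks 1 and 2 of the 13140 genes tested. Retnlg followed at 9.30 ± 0.21, and then Lcn2 at 7.46 ± 0.21 and Clec4e at 6.93 ± 0.23. Csf3r (5.92 ± 0.24), Mmp8 (5.78 ± 0.25), Trem1 (5.24 ± 0.15), Mmp9 (5.12 ± 0.19) and Cxcr2 (4.87 ± 0.16) made up the lower end. The members' median was 6.42, beside 0.13 for all genes tested. Against day 6, the members were again 10 of 10 higher (32.1% of all genes), from 2.10 ± 0.61 for Csf3r (adjusted p = 0.0279) to 4.33 ± 0.56 for Mmp8 (adjusted p = 0.00105). Csf3r was not called there when the libraries were rescaled by TMM factors (1.68 ± 0.68, adjusted p = 0.0963).

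Other genes of neutrophils and of the members' pathways rose in rectum at day 9. Of 18 other neutrophil genes, 13 were tested and 13 were called higher (33.5% of all genes), led by the stefin Stfa2l1 (7.74 ± 0.19, listed at 0 in all uninjured rectum samples), the decoy receptor Il1r2 (7.32 ± 0.19) and the histamine-forming enzyme Hdc (7.20 ± 0.37). Any listed gene under 1 TPM in all uninjured rectum samples, Stfa2l1 among them, was tested only through its day 9 level. The counts therefore favour genes that rose. Of 15 ligands, receptors and adaptors of the members, 12 of 13 tested were called higher, led by the Cxcr2 ligands Cxcl2 (8.43 ± 0.59) and Cxcl3 (6.66 ± 0.35) and by Timp1 (4.96 ± 0.16), the inhibitor of matrix metalloproteinases. Csf3, which encodes the ligand of Csf3r, was listed at 0 in uninjured rectum and averaged 20.6 ± 13.1 TPM (SD, n = 3) at day 9. Elane and Mpo, granule enzyme transcripts that neutrophils make early in the bone marrow, were almost absent. Elane was listed at 0 in all rectum samples of day 9, and Mpo averaged 0.302 ± 0.153 TPM. Macrophage and monocyte genes moved the same way, with 10 of 10 called higher, a summed level of 1249 to 1441 TPM against 138 to 160 TPM in uninjured rectum, and Cd14 (4.80 ± 0.22), Ly6c2 (3.32 ± 0.41) and Cd68 (3.28 ± 0.16) in the lead. Squamous markers had 8 of 10 tested called higher and summed to 846 to 1376 TPM, against 346 to 571 TPM. Mitochondrial transcripts took 8.053% to 11.64% of the day 9 rectum libraries and 16.33% to 20.01% of the uninjured ones. The part of these shifts in the members' change was not tested.

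**Figure D2:**
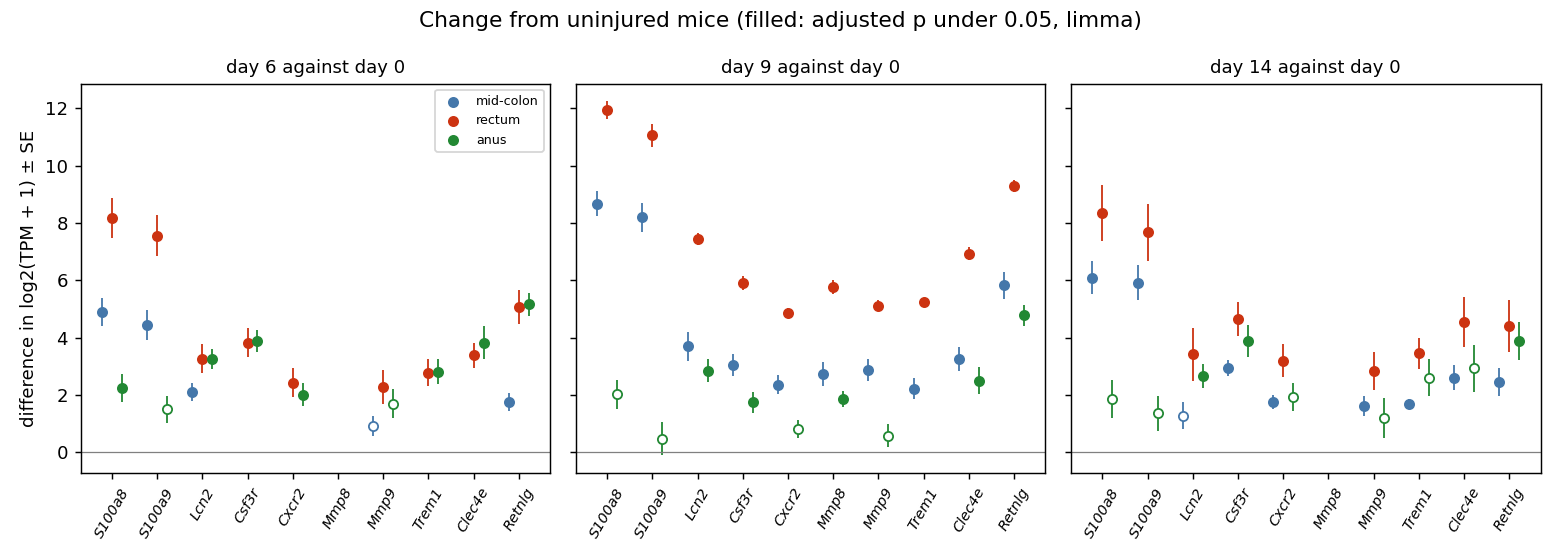
Difference from uninjured mice in log2(TPM + 1) (vertical axis, ± SE) for the 10 genes (horizontal axis) at days 6, 9 and 14 in mid-colon, rectum and anus, with filled points where the adjusted p was under 0.05. At day 9 the rectum points lie above those of mid-colon and anus for all 10 genes; Mmp8 was not tested at days 6 and 14, nor were 4 other genes in mid-colon at day 6 and Trem1 in anus at day 9.

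The mid-colon followed the same days at a lower level. At day 9 S100a8 was 607.1, 1012 and 226.4 TPM, Csf3r 5.568, 19.5 and 4.911 TPM, and Retnlg 96.99, 118.0 and 23.3 TPM, in mice 11, 12 and 13. Mouse 13 had the lowest mid-colon value for all 10 genes. All 10 members were called higher than at day 0 (26.5% of all genes), from 2.22 ± 0.37 for Trem1 to 8.68 ± 0.44 for S100a8 (adjusted p = 3.01e-06, limma). S100a8, Csf3r, Cxcr2, Mmp8, Trem1, Clec4e and Retnlg were under 1 TPM in all uninjured mid-colon samples. They were tested only through their day 9 levels, which favours a call. Over the same days 8 of 10 monocyte and macrophage genes and 5 of 6 tested squamous genes were called higher in mid-colon, and 6 of 10 colonic epithelium genes lower. To ask whether the sections differed in their response, the change from day 0 was compared between them; these contrasts share the rectum samples. The day 9 response was larger in rectum than in mid-colon for 10 of 10 members (5.84% of all genes), with a gap between 2.25 ± 0.47 for Mmp9 (adjusted p = 0.00963) and 3.77 ± 0.64 for Lcn2 (adjusted p = 0.00268), and with a pseudocount of 0.1 TPM 6 of the 10 were called. Monocyte and macrophage genes also had the larger response in rectum, in 8 of 10 cases, and their part in the members' gap was not tested. At day 6 the gaps were 1.17 to 3.31 and none of 9 was called (0% of genes; 7 members at an unadjusted p under 0.05). With the mouse as a block, since the sections of 1 mouse are paired, 5 were called at day 6: S100a8 (3.28 ± 0.51, adjusted p = 0.0312), Csf3r (2.57 ± 0.32, 0.0118), Trem1 (2.28 ± 0.39, 0.0423), Clec4e (2.30 ± 0.34, 0.0277) and Retnlg (3.31 ± 0.40, 0.0114); without the block, leaving out mouse 8 gave 1 call and leaving out mouse 10 gave 2.

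In anus both neutrophil receptors rose by day 6, and no member was called different between days 6 and 9. Csf3r was 19.14, 33.99 and 11.68 TPM at day 6 and 1.865, 6.378 and 4.047 TPM at day 9, and these groups did not overlap. Its difference between the days was -2.13 ± 0.44 with an adjusted p of 0.128 (limma), and none of the members was called (3 of 10 at an unadjusted p under 0.05; 0.166% of genes called lower). Retnlg was 48.04, 86.64 and 26.47 TPM at day 6 and 20.28, 59.62 and 40.43 TPM at day 9, against at most 1.045 TPM at day 0. S100a8, at 912.8, 1882 and 679.8 TPM at day 6, was above all uninjured samples. S100a9 at day 6 was 970.0, 1866 and 646.4 TPM, which overlapped the uninjured range. Against day 0, 7 of 9 tested were called higher at day 6 (8.64% of genes), from 2.01 ± 0.39 for Cxcr2 to 5.16 ± 0.39 for Retnlg (adjusted p = 0.000231). Trem1 and Clec4e, under 1 TPM in all uninjured anus samples, were tested only through their day 6 levels, which favours a call. S100a9 was at 1.5 ± 0.48 (adjusted p = 0.0712) and Mmp9 at 1.69 ± 0.51 (0.0579). At day 9, 5 of 9 were called (1.46% of genes), Lcn2, Csf3r, Mmp8, Clec4e and Retnlg, and 3 without mouse 2. Of these, Mmp8 and Clec4e were tested only through their day 9 levels. Colonic epithelium genes fell in anus over the same days, with 9 of 9 tested called lower at day 6 and at day 9 and sums of 44.5 to 115.9 TPM at day 6 against 1685 to 5134 TPM at day 0. At day 6, 8 of 10 monocyte and macrophage genes and 6 of 12 squamous genes were called higher in anus. At day 9 none of the former and 2 of the latter were. The part of these lists in the members' change was not tested.

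The response of anus and rectum differed at both days. At day 6 both calls were calprotectin genes: the change in anus minus the change in rectum was -5.95 ± 0.96 on the log2 scale for S100a8 (adjusted p = 0.000921, limma) and -6.06 ± 0.97 for S100a9 (0.000897). Mean S100a8 went from 259.6 to 1158 TPM in anus and from 0.4973 to 663.0 TPM in rectum. Mean S100a9 went from 427.1 to 1161 TPM in anus and from 2.011 to 789.1 TPM in rectum. The gap at day 6 is thus one of log2 change from unlike starting levels, and anus held the higher means at that day. The other 8 members had gaps between -0.59 ± 0.86 (Mmp9) and 0.44 ± 0.81 (Clec4e), none of them called (6.16% of all genes were called lower), and without mouse 10 there were 5 calls, 2 of a smaller and 3 of a larger response in anus. At day 9 all 10 members had the smaller response in anus (15.6% of genes), from -3.93 ± 0.39 for Mmp8 to -10.59 ± 0.77 for S100a9 (adjusted p = 1.89e-06). S100a8 in anus at day 9 was 773.3, 1764 and 558.9 TPM, and its own change from day 0, 2.02 ± 0.51, was not called (adjusted p = 0.0582). In the same contrasts 9 of 10 colonic epithelium genes at day 6 and 10 of 10 at day 9 had the smaller response in anus, as did 8 of 10 monocyte and macrophage genes at day 9, and 6 of 12 squamous genes at day 6 had the larger one; their part was not tested.

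Within a section, the order of the mice was often the same for most of the 10 genes. At day 14 mouse 14 was lowest for all 10 genes in rectum and mid-colon, and mouse 16 was highest for all 10 in rectum and anus. S100a8 in rectum was then 72.94, 658.2 and 2032 TPM in mice 14, 15 and 16, and Retnlg was 3.347, 30.7 and 100.8 TPM. At day 20 mouse 18 was highest for 10 of 10 genes in anus and neo-epithelium and for 9 of 10 in rectum and mid-colon. Its S100a8 level was 238.0 TPM in rectum, where mouse 19 had 8.263 TPM. In mid-colon it was 68.09 TPM, where mouse 19 had 1.327 TPM. The order also differed between sections. At day 6 mouse 10 was highest in rectum for 10 genes and lowest in anus for 9. At day 9 mouse 12 was highest for 9 genes in anus and lowest for all 10 in neo-epithelium. At day 14 mouse 14 was highest for 5 of the 10 genes in neo-epithelium, and in anus mouse 15 was lowest for 7.

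Above day 0, 9 of 9 members tested were still called higher in rectum at day 14 (6.31% of genes), with S100a8 at 8.36 ± 0.98 (adjusted p = 0.00543, limma) and Csf3r at 4.64 ± 0.59 (0.0064). Among these, Csf3r, Cxcr2, Mmp9, Trem1, Clec4e and Retnlg were tested only through their day 14 levels, which favours a call. The count fell to 5 without mouse 1, 2, 3 or 15. Monocyte and macrophage genes had 4 of 10 called higher in rectum and 5 of 10 in mid-colon at day 14, and their part was not tested. In mid-colon 8 of 9 were called (2.55%), all but Lcn2 (1.28 ± 0.46, adjusted p = 0.151), with 4 left without mouse 16 and 5 without mouse 1, 3 or 15. S100a8, Csf3r, Cxcr2, Trem1, Clec4e and Retnlg were tested in mid-colon only through their day 14 levels, which again favours a call. In anus 3 of 9 were called (2.26%), Lcn2, Csf3r and Retnlg, with 1 without mouse 2 and 5 without mouse 15. At day 20 rectum had 2 of 4 tested called (2.79%), S100a8 (5.40 ± 0.95, adjusted p = 0.0245) and Csf3r (2.46 ± 0.60, 0.0457). Csf3r, under 1 TPM in all uninjured rectum samples, was tested only through its day 20 levels, which favours a call. Without mouse 19 the rectum count was 9 and without any other single mouse it was 0. Anus had 3 of 8 at day 20 (1.09%), Csf3r, Clec4e and Retnlg, with 6 without mouse 17, 1 without mouse 1 and 0 without any of the others. Clec4e was tested in anus only through its day 20 levels. The Csf3r call in anus was lost with TMM factors (3.46 ± 0.72, adjusted p = 0.0538). Mid-colon had 0 of 3 at day 20 (0.677%; 3 at an unadjusted p under 0.05) and 4 without mouse 19.

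From day 9 to day 14 in rectum, 2 of 10 members were called lower (4.72% of genes), Retnlg (-4.89 ± 1.00, adjusted p = 0.0358) and Mmp8 (-3.77 ± 0.76, 0.0355). Csf3r was at -1.28 ± 0.70 (adjusted p = 0.268) over the same days. The other neutrophil genes had 6 of 14 called lower and 1 higher, with the granule protein gene Ngp falling from 48.2 to 0.740 TPM (-4.85 ± 0.55, adjusted p = 0.014). The member count was 6 without mouse 14 and 0 without mouse 11, 12, 13 or 15. The size of the rectum and mid-colon responses at day 14 was not called different for any member (0% of genes called higher; 3 of 10 members at an unadjusted p under 0.05), and for 9 members it was without mouse 14.

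The highest single values of S100a8 and S100a9 in the series were in neo-epithelium. At day 9 S100a8 was 9204, 3401 and 8137 TPM in mice 11, 12 and 13, and the 10 genes took 0.7567% to 1.993% of a library. S100a8 was 1181, 575.9 and 1608 TPM at day 14 and 194.6, 1791 and 326.8 TPM at day 20. Csf3r over the same days was 81.7, 33.17 and 105.4, then 125.8, 34.49 and 46.04, then 19.2, 172.1 and 42.25 TPM, so its 3 groups overlapped. Retnlg was 1768, 426.8 and 1086 TPM at day 9 and 63.38, 43.36 and 95.88 TPM at day 14, with no overlap. Of the 10 genes, 9 had their highest neo-epithelium mean at day 9, and Csf3r had it at day 20.

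**Figure D3:**
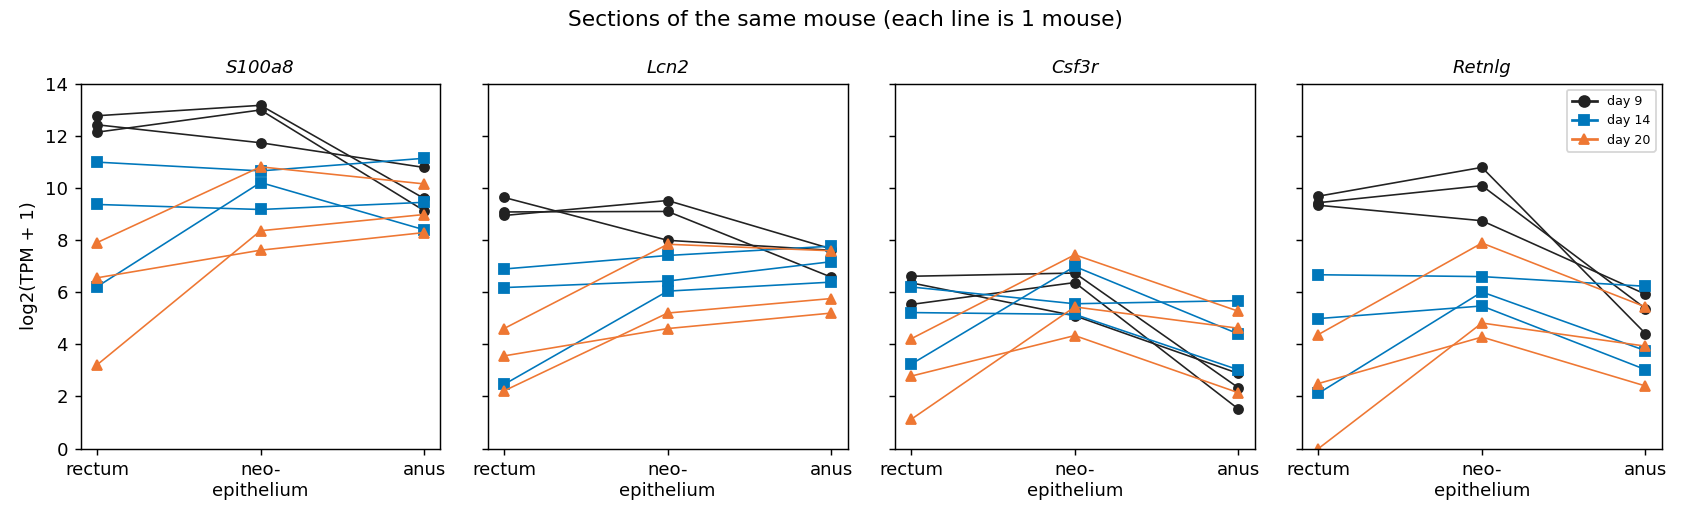
Level of S100a8, Lcn2, Csf3r and Retnlg in log2(TPM + 1) (vertical axis) in rectum, neo-epithelium and anus, with 1 line per mouse for the 9 mice of days 9, 14 and 20. Csf3r is higher in neo-epithelium than in anus in 8 of 9 mice and Retnlg in 9 of 9, S100a8 in 5 of 9 and Lcn2 in 4 of 9.

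Against anus of the same 9 mice, 8 of 10 members were called higher in neo-epithelium (40.1% of all genes), with Csf3r at 2.36 ± 0.55 (adjusted p = 0.00154, limma), Mmp9 at 2.34 ± 0.52 and Retnlg at 2.69 ± 0.63. S100a8 (0.98 ± 0.55, adjusted p = 0.132) and Lcn2 (0.27 ± 0.47, 0.644) were the 2 not called. S100a9 was called at 1.49 (adjusted p = 0.0383, limma) but not with TMM factors (1.35 ± 0.61, 0.066). The excess of S100a8 was 2.79 ± 1.61 (SD, n = 3 mice) at day 9 and -0.22 ± 0.75 at day 20. Colonic epithelium genes were also higher in neo-epithelium than in anus, with 9 of 9 tested called, and the monocyte and macrophage list had 5 of 10 called higher and 1 lower; their part in the result was not tested. Against rectum, no member was called (20.9% of genes called higher; 5 of 10 members at an unadjusted p under 0.05). With the mouse as a block 2 were called, Retnlg (1.73 ± 0.55, adjusted p = 0.0234) and Mmp8 (0.94 ± 0.35, 0.0489), and without the block leaving out mouse 12 gave 3 calls and mouse 16 gave 2. At day 20 all 3 mice had more S100a8 in neo-epithelium than in rectum, by 3.04 ± 2.05 on the log2 scale (SD), while this held for 2 of 3 mice at day 9 and 1 of 3 at day 14 (-0.34 to 4.0). Squamous genes were higher in neo-epithelium than in rectum (12 of 12 called) and colonic epithelium genes lower (10 of 10), and their part was not tested. Anus and rectum of days 9 to 20 had no member called apart (26.5% of genes called higher and 38.4% lower; no member at an unadjusted p under 0.05), and 3 were called without mouse 19. This fit averages the difference over the days, so opposite differences can cancel. At day 9 S100a8 was 4504 to 6975 TPM in rectum and 558.9 to 1764 TPM in anus. At day 20 it was 8.263 to 238.0 TPM in rectum and 311.4 to 1139 TPM in anus, and at day 14 the ranges overlapped.

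Within the neo-epithelium, 3 members were called lower at day 20 than at day 9 (16.1% of genes): S100a8 (-3.71 ± 0.83, adjusted p = 0.0214, limma), Retnlg (-4.21 ± 0.99, 0.0247) and Lcn2 (-2.99 ± 0.85, 0.0437), which was not called with TMM factors (-2.84 ± 0.87, 0.0546). The count was 9 without mouse 18, 2 without mouse 12 and 0 without any of the others. Csf3r was at -0.33 ± 0.81 (adjusted p = 0.79). Over these days 9 of 9 tested colonic epithelium genes were called higher, and 4 of 10 monocyte and macrophage genes and 4 of 12 squamous genes lower; their part was not tested. In a comparison added after its values were seen, day 14 had 5 members called lower than day 9 (9.77% of genes), S100a8, S100a9, Lcn2, Mmp8 and Retnlg, with Retnlg at -3.85 ± 0.55 (adjusted p = 0.0123). Csf3r was at -0.17 ± 0.60 (adjusted p = 0.861). Without mouse 13 none was called, without mouse 11 or 15 there were 2, and without mouse 16 there were 3. The colonic epithelium list rose between these days (6 of 9 tested called higher) and the squamous list fell (5 of 12 called lower), and their part was not tested.

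The proportions among the 10 transcripts changed with the day in all sections. Each library's level of a gene was divided by its Csf3r level where Csf3r was at least 1 TPM (for the ratio of the subunits, S100a8); these ratios were chosen after values were seen and carry no test. Retnlg per Csf3r was 1.609 to 2.73 in the 8 libraries of day 6, 4.743 to 21.63 in the 12 of day 9, 0.2908 to 2.082 in the 12 of day 14 and 0 to 1.367 in the 11 of day 20. The day 9 libraries therefore did not overlap those of any other day from day 6 on, whether they came from mid-colon, rectum, anus or neo-epithelium. The libraries of each of these days came from 3 mice with several sections each, so they are not independent. Mmp8 per Csf3r behaved in the same way, at 0.3475 to 1.966 on day 9 and at most 0.1556, 0.2187 and 0.1947 on days 6, 14 and 20. The granule protein gene Ngp per Csf3r had a median of 0.666 on day 9 and 0.02704, 0.01815 and 0.02312 on days 6, 14 and 20, with overlap between days 9 and 14. Cxcr2 per Csf3r and Trem1 per Csf3r overlapped between the days, with medians of 0.3532 to 0.615 and 0.2542 to 0.478. Clec4e per Csf3r ran from 0.6256 to 2.424 on day 9, which overlapped the ranges of days 6 (0.3496 to 1.182), 14 (0.2219 to 1.39) and 20 (0.08381 to 0.6501).

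**Figure D4:**
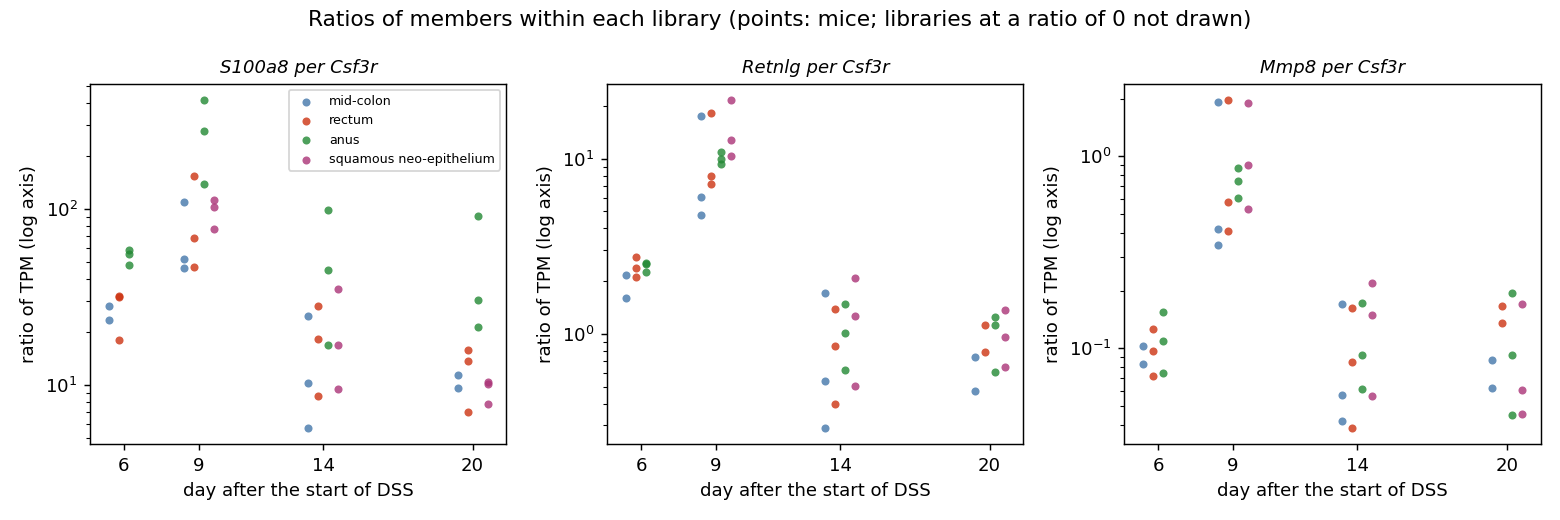
Ratio of S100a8, Retnlg and Mmp8 to Csf3r in TPM (vertical log axis) by day after the start of DSS (horizontal axis), with 1 point per library coloured by section. The 12 day 9 libraries, from 3 mice, lie above all others for Retnlg and Mmp8, and at day 9 anus has the most S100a8 per Csf3r of the 4 sections by median.

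Calprotectin per receptor had different ranges in the sections on some days, with no test run. S100a8 per Csf3r at day 9 was 138.1 to 414.7 in anus, 46.56 to 154.3 in rectum, 46.11 to 109.0 in mid-colon and 77.16 to 112.7 in neo-epithelium, and the ranges of anus and rectum overlapped. At day 6 anus (47.69 to 58.23) lay above rectum (17.98 to 31.93) and mid-colon (23.43 to 27.83). At day 14 the ranges of all 4 sections overlapped, from 16.69 to 97.78 in anus and 8.636 to 28.02 in rectum. By day 20 neo-epithelium was at 7.734 to 10.41 and anus at 21.39 to 91.03, without overlap. The balance of the 2 subunits shifted too. S100a9 per S100a8 was 1.536 to 1.899 in uninjured anus and 0.4022 to 0.7408 in anus at day 9, while neo-epithelium went from 0.837 to 1.042 at day 9 to 1.327 to 1.878 at day 20.

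Levels over all 66 libraries were compared between genes by Pearson's r of log2(TPM + 1), as a description of samples that share mice, sections and days. S100a8 was most like S100a9 (r = 0.989). Outside the 10 genes its closest match was Il1r2 (0.948), followed by Tnfaip2 (0.934) and Serpina3n (0.925). Lcn2 was closest to Nfil3 (0.956), Icam1 (0.948) and Alox5ap (0.938), each with a higher r than any of the 9 other members. Csf3r was closest to Trem1 (0.972) and Cxcr2 (0.966) among the members, and to Il1b (0.967), Hdc (0.966) and Sirpb1b (0.960) outside them. Across these libraries Csf3r had an r of 0.832 with S100a8 and 0.790 with Lcn2.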

How the data were processed

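RNA from mid-colon, rectum, anus and squamous neo-epithelium of 19 mice was sequenced as single-end reads of 75 bases from stranded mRNA libraries, per the labels' protocols. CASAVA, kallisto and the mm10 build are named in the submitters' processing notes, without versions. The deposited values are a signal that is never negative, TPM per transcript as the authors made them, with 37344 of 126860 rows empty. Dropping 1318 repeated rows brought each column to a sum of 1000000. TPM was summed per gene identifier (30452 genes). No counts are in the table, so depth is unknown. Groups follow section and day. A gene was tested if at least 1 TPM was reached in a number of samples equal to the smaller group, on log2(TPM + 1), with limma 3.58.1 (empirical Bayes with a mean trend) in R 4.3.3; Python 3.11.15 with pandas 2.3.3 made the rest. The scripts were tested on simulated data. There were 29 planned comparisons and 1 added one. Members and gene lists were chosen with earlier results of these data known. Genes named from a list are the 3 with the largest called change, or were chosen after their values were seen (Csf3, Mpo, Elane and Ngp). Likeness was searched over 14908 genes. Sections of 1 mouse are paired through the mouse number in the labels, and the mean correlation of their deviations from the group means ran from 0.031 to 0.293. Alternatives were a pseudocount of 0.1 TPM, no filter, a filter of 5 TPM, TMM factors, all days in 1 fit, the mouse as a block and each mouse left out in turn.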

Additional observations from a re-analysis of the deposited data

Results flagged for a closer look

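One of 13 groups of 4 uninjured samples with a value of 1 TPM or more had a sample far from the others, by a criterion that chance meets in about 1 in 20 groups: Lcn2 in anus at day 0, where mouse 3 stood at 40.9 TPM and the other 3 mice between 14.37 and 18.63 TPM.

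The response at day 9 differed between rectum and mid-colon for all 10 genes. On the log2 scale the rectum response was larger by 3.28 for S100a8, 2.86 for S100a9, 3.77 for Lcn2, 2.87 for Csf3r, 2.50 for Cxcr2, 3.06 for Mmp8, 2.25 for Mmp9, 3.02 for Trem1, 3.68 for Clec4e and 3.47 for Retnlg.

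Between anus and rectum the response differed at day 6 for S100a8 (-5.95) and S100a9 (-6.06), with the smaller log2 response in anus, where both genes started high. At day 9 it differed for all 10 genes: S100a8 (-9.93), S100a9 (-10.59), Lcn2 (-4.62), Csf3r (-4.17), Cxcr2 (-4.05), Mmp8 (-3.93), Mmp9 (-4.55), Trem1 (-3.97), Clec4e (-4.43) and Retnlg (-4.52).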

How the results depend on the processing

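The count of members called in rectum at day 9, mid-colon at days 3 and 6, anus at day 3, anus or mid-colon against rectum at day 0, neo-epithelium against anus, rectum from day 6 to 9 and anus between days 6 and 9 stayed within 1.5 times its value under all alternatives run, as did the smaller response of anus than of rectum at day 9. With a filter of 5 TPM, which tests fewer of the 10 genes, the count was 4 in mid-colon at day 9 and 2 at day 14; 5, 3 and 1 in rectum at days 6, 14 and 20; and 4, 2 and 0 in anus at days 6, 9 and 20. With no filter it was 5 in mid-colon at day 14, 0 in rectum at days 3 and 20, 3 and 0 in anus at days 9 and 20, 0 for rectum from day 9 to 14, and 0 and 2 for neo-epithelium at days 20 and 14 against day 9. With a pseudocount of 0.1 TPM it was 0 in rectum at day 3 (also 0 with the filter of 5 TPM and with all days fitted together), 5 in anus at day 14, 1 for rectum from day 9 to 14, and 6 for the larger day 9 response of rectum than of mid-colon. With all days of a section in 1 fit it was 1 in mid-colon at day 20, 3 and 6 in anus at days 9 and 14, 5 and 1 for neo-epithelium at days 20 and 14 against day 9, and 6 for rectum from day 9 to 14. TMM factors gave 1 call for neo-epithelium against rectum and shifted the members by a median of -0.42 (rectum from day 6 to 9) to 0.17 on the log2 scale, depending on the comparison. The mouse as a replicate block gave 2 calls for neo-epithelium against rectum and 5 for the day 6 response of rectum against mid-colon, and moved no other count by over 1.5 times. The cause of these moves was not tested.

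With each mouse left out in turn, the count ran from 4 to 6 in mid-colon at day 6, 4 to 9 at day 14 and 0 to 4 at day 20; from 0 to 1, 5 to 10 and 0 to 9 in rectum at days 3, 14 and 20; and from 6 to 9, 3 to 6, 1 to 5 and 0 to 6 in anus at days 6, 9, 14 and 20. It ran from 0 to 3 for neo-epithelium against rectum and for anus against rectum over days 9 to 20, 6 to 8 for neo-epithelium against anus, 0 to 9 and 0 to 5 for neo-epithelium at days 20 and 14 against day 9, 7 to 10 for rectum from day 6 to 9 and 0 to 6 from day 9 to 14. For the response of rectum against mid-colon it ran from 0 to 2 at day 6, 8 to 10 at day 9 and 0 to 9 at day 14, and for anus against rectum at day 6 from 2 to 5; the 5, without mouse 10, held 3 calls in the other direction. Of 2778 values of single members under the alternatives, 2485 kept direction and side of the threshold, 179 lost and 70 gained a call, and 44 uncalled ones changed sign. Depth is unknown, and for members under 1 TPM only their absence from the tests is reported.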

Other observations

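Several genes of the neutrophil and ligand lists were abundant where Csf3r was not. Ly6g, whose product is the usual surface marker of mouse neutrophils, averaged 716 ± 177 TPM (SD, n = 4) in uninjured mid-colon and 639 ± 65 TPM in uninjured rectum, where Csf3r was at most 0.2885 TPM, and 120 ± 42 TPM in uninjured anus. Its rectum mean was 2086 ± 554 TPM (n = 3) at day 6 and 1671 ± 359 TPM at day 9, and in anus it fell by 4.13 ± 0.35 on the log2 scale at day 6 (adjusted p = 0.000388, limma) while Csf3r rose there. Ly6g belongs to a family of like genes, so reads may have been split among copies and its level is uncertain. Cd177, another neutrophil surface gene, averaged 143 ± 85 TPM in mid-colon at day 14, against 29.6 ± 8.7 TPM at day 9.

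Ltf (lactoferrin, a granule and gland protein) averaged 366.5 ± 126 TPM in uninjured anus and 2838 ± 229 TPM in anus at day 14, against 113 ± 97 TPM in rectum at day 14. Il1r2 kept a mean between 75.0 and 90.0 TPM in anus at every day, while in rectum it went from 0.336 to 217 TPM between days 0 and 9. Ppbp, a chemokine precursor known from platelets, averaged 825 ± 297 TPM in uninjured anus and 7716 ± 2423 TPM in neo-epithelium at day 14, against 0.364 ± 0.163 TPM in uninjured mid-colon. Cxcl5, a ligand of Cxcr2, averaged 531 ± 108, 900 ± 466 and 637 ± 505 TPM in neo-epithelium at days 9, 14 and 20 and 204 ± 70, 98.5 ± 72.6 and 37.7 ± 23.5 TPM in rectum. These genes were picked after their values were seen.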
